A study of Homo sapiens with 6 samples.

Results

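The 45 genes described here repair DNA: they belong to homologous recombination, the Fanconi anemia pathway, mismatch repair and non-homologous end joining. They were taken by gene symbol from the 60612 genes of the deposited table, and each symbol matched 1 gene. RNA-seq after ribosomal RNA depletion had been done on 6 samples of HCT116, an epithelial line from a human colorectal cancer. In 3 samples the cells had received si NC, a control siRNA (these are called controls below), and in the other 3 an siRNA against PLOD3, a lysyl hydroxylase that modifies collagen, each for 2 days. The series asks what PLOD3 does in colorectal cancer. All samples are of 1 cell line with no other stated alteration, and nothing in the labels says that samples of a group came from separate cultures, so p-values here cover only how these samples scatter, and that scatter may be technical.

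Homologous recombination mends broken DNA by copying the sister chromatid. The broken end is first trimmed to a strand with a free 3′ end, BRCA2 and its partners then load the recombinase onto it, and the paired strands are resolved by helicases and nucleases. The Fanconi proteins unhook crosslinked strands and hand the resulting break to recombination, mismatch repair corrects copying errors of the polymerase, and end joining ligates broken ends without a template. Many recombination genes are known to be transcribed mainly in cells that replicate their DNA, and HCT116 is known as a line with deficient mismatch repair.

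In the cells given PLOD3 siRNA, 22 of the 41 repair genes that could be tested were higher and 0 were lower. Of all 12000 genes tested, 16.2% were called higher and 19.3% lower. The tested genes had a mean level of at least 1 FPKM over the 6 samples (a level per length of transcript and per depth of the library), and a call is an adjusted p under 0.05 in edgeR's quasi-likelihood test. The rises were largest for RAD51AP1 and RAD51C. Rises were found among recombination, Fanconi, end joining and mismatch repair genes, with 2 of 4 tested genes in end joining and 1 of 4 in mismatch repair. EXO1, which rose and also serves mismatch repair, is counted under end resection. Differences between roles of so few genes were not tested. The median log2 fold change of the 41 genes was 0.40, beside 0.0034 over all genes tested. At an unadjusted p under 0.05, 1 of the 41 (FANCC) was lower, and DESeq2 and limma also called 0 lower. Without si NC replicate 3, 13 were called higher, and 14 if PLOD3 siRNA replicate 1 was left out. Over all 12000 genes, those called higher also fell in these fits, from 1945 to 1106 and 1083. Of all calls, 45.6% were higher, against 62.8% in a limma fit of TPM, a level scaled to the same total in every sample, where 22 repair genes were called higher. In 25 of the 41, every PLOD3 siRNA sample lay above every si NC sample, a pattern found in 24.6% of all tested genes. FANCC alone had every PLOD3 siRNA sample below every si NC sample, a pattern of 27.5% of tested genes. Separate groups in either direction were found for 52.1% of tested genes. Of the 41, 8 were both called higher and at least 1.5-fold up, as were 5.56% of all tested genes. Among called genes only, these were 8 of 22 repair genes and 667 of 1945 over all.

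PLOD3 itself was lower in every PLOD3 siRNA sample. The controls had 6.40, 7.16 and 6.22 FPKM of it against 3.44, 3.40 and 4.05 with PLOD3 siRNA (log2 fold change -0.85, SE 0.107, edgeR adjusted p = 0.0035), and after the correction for GC content described below its log2 fold change was -0.54. The estimated counts summed to 55416555 to 76802428 per sample, and about 4 units were inferred to stand for 1 read pair. A tested repair gene had from 140 (FAAP24) to 107294 (XRCC6) of these units in a sample. Epithelial markers were present, with 5 of 7 (EPCAM, KRT8, KRT18, KRT19 and CDH1) at a mean of 1 FPKM or more and CDX1 without reads, and their summed level was 661 to 716 FPKM in si NC and 559 to 635 in PLOD3 siRNA. The summed level of 6 leukocyte markers stayed at or below 0.431 FPKM in every sample, with PTPRC, CD3E and MS4A1 without reads, that of 4 endothelial markers at or below 0.221, and that of 6 fibroblast markers at 2.62 to 2.69 in si NC and 1.45 to 1.91 in PLOD3 siRNA, with DCN and LUM without reads. In such bulk samples, a change in the number of cells that use a gene and a change in RNA per cell cannot be told apart. Among genes tied to proliferation, chosen after their values were seen, cyclin A2 (CCNA2) measured 27.6, 27.2 and 26.1 FPKM in the controls against 48.9, 47.2 and 48.1 with PLOD3 siRNA. The replication clamp PCNA measured 193, 172 and 179 FPKM in the controls against 235, 288 and 259 with PLOD3 siRNA. MKI67, a marker of cycling cells, overlapped between the groups, at 44.1, 37.0 and 38.2 against 40.2, 31.1 and 56.8 FPKM. The part of proliferation in the changes of repair genes was not tested.

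The repair genes tend to have transcripts low in G and C, and the fold changes of all genes in these samples varied with GC content. Over the 11968 tested genes with a known transcript, Pearson's r between GC content and log2 fold change was -0.38, and over the 41 repair genes it was -0.55. These are descriptions across genes, which share libraries and are not independent. The median GC content was 42.2% in the repair genes and 49.1% in all tested genes. Among tested genes below 40% GC, 32.6% were called higher, and 7 of 12 repair genes were. From 40% to under 45% the values were 28.1% and 11 of 15. In the 3 classes from 45% up, the shares over all genes were 17.2%, 10.5% and 3.35%, and 1 of 6, 1 of 4 and 2 of 4 repair genes were called higher. When a smooth trend on GC content was removed from each sample (the GC correction below), 15 of the 41 repair genes were called higher and 0 lower, against 13.1% and 14.4% of all genes, and the median log2 fold change of the 41 was 0.21. The median over all genes was then 0.0094. The part of GC content in the rises was not tested beyond this correction.

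**Figure D1:**
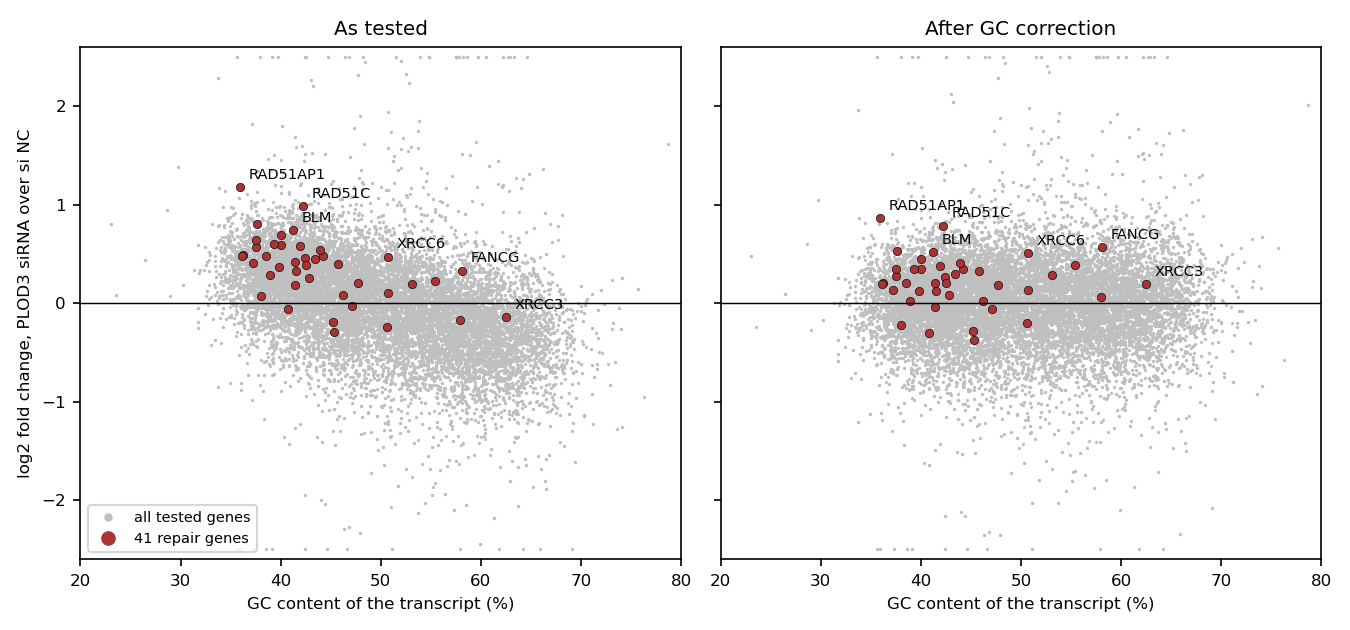
Each point is a tested gene: the x axis gives the GC content of its longest coding transcript in percent, the y axis its log2 fold change, with values beyond 2.5 drawn at 2.5. Grey points are all 11968 genes with a known transcript and red points the 41 repair genes. On the left the cloud slopes downward and most red points lie at the low-GC end, and on the right, after the GC correction, the slope is gone and the red points have a median of 0.21.

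Promoter sequences are shown for 4 of the genes, chosen to set the largest rise (RAD51AP1), the rise with the smallest adjusted p (BLM) and the most abundant member (XRCC6) beside a gene that did not rise (XRCC3). RefSeq (GRCh38.p14) gave a promoter of 300 bases, from 250 before to 50 after the start, for 39 of the 45 genes, and none was used for FANCI, NBN, PRKDC, RAD54B, WRN and XRCC5. Capitals mark matches, on either strand, to CCAAT, the box bound by NF-Y, or to TTTGGCGC, a form of the site bound by E2F factors. ATTGG is CCAAT read from the other strand, and GCGCCAAA is TTTGGCGC.
RAD51AP1, chr12:4538640-4538939, plus strand: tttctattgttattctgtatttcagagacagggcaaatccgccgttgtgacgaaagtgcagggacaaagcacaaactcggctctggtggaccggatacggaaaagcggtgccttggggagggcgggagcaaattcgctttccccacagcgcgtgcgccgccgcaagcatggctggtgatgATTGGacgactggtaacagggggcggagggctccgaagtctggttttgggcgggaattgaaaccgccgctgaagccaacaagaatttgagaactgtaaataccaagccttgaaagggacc
BLM, chr15:90717096-90717395, plus strand: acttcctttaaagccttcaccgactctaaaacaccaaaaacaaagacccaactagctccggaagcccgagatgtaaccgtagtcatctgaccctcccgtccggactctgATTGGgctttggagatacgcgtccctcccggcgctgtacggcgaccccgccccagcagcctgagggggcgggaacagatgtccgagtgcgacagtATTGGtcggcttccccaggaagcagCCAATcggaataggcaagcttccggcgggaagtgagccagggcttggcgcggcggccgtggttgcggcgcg
XRCC6, chr22:41621045-41621344, plus strand: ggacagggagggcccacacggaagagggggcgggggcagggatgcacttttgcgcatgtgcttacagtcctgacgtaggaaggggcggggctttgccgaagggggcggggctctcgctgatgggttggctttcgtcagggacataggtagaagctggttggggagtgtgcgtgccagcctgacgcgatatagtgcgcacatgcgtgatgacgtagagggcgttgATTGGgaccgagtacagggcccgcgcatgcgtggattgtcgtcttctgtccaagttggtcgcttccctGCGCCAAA
XRCC3, chr14:103715402-103715701, minus strand: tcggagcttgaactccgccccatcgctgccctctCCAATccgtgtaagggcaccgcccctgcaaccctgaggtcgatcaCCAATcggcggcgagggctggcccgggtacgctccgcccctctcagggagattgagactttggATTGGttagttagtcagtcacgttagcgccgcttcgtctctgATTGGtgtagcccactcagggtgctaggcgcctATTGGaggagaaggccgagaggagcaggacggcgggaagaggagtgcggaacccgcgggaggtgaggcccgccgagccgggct

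The printed sequences hold 1 CCAAT match in RAD51AP1, 3 in BLM, 1 in XRCC6 and 5 in XRCC3, and XRCC6 holds the only E2F match among the 4. CCAAT was found in 18 of the 39 promoters (46.2%) and in 34.6% of all 35116 promoters of that length. Among genes that could be tested, 9 of 19 called higher and 8 of 16 that did not pass held it, so the match did not separate the genes that rose. TTTGGCGC was found in 2 of the 39 (5.13%) against 0.652% of all promoters, and TTTCCCGC, another form of the E2F site, in 4 (10.3%) against 1.63%. By call, TTTGGCGC was in 1 of the 19 called higher and 0 of the 16 that did not pass. TTTCCCGC was in 2 of the 19 and 2 of the 16. TTTGAA, the core of the cell cycle homology region, was found in 4 (10.3%) against 15.2%. No pair of these motifs shares bases with another in the sequences shown. These matches are descriptions of letters in a window and not of binding.

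The levels of the 45 genes spanned several orders of magnitude. XRCC6, XRCC5 and PRKDC of end joining and RBBP8 of end resection were the only 4 with a mean of 10 FPKM or more over the 6 samples. Another 37 lay from 1 to under 10 FPKM, and ATM, FANCB, MSH3 and RAD51B lay below 1 and were not tested. The median of the 45 means was 4.46 FPKM.

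**Figure D2:**
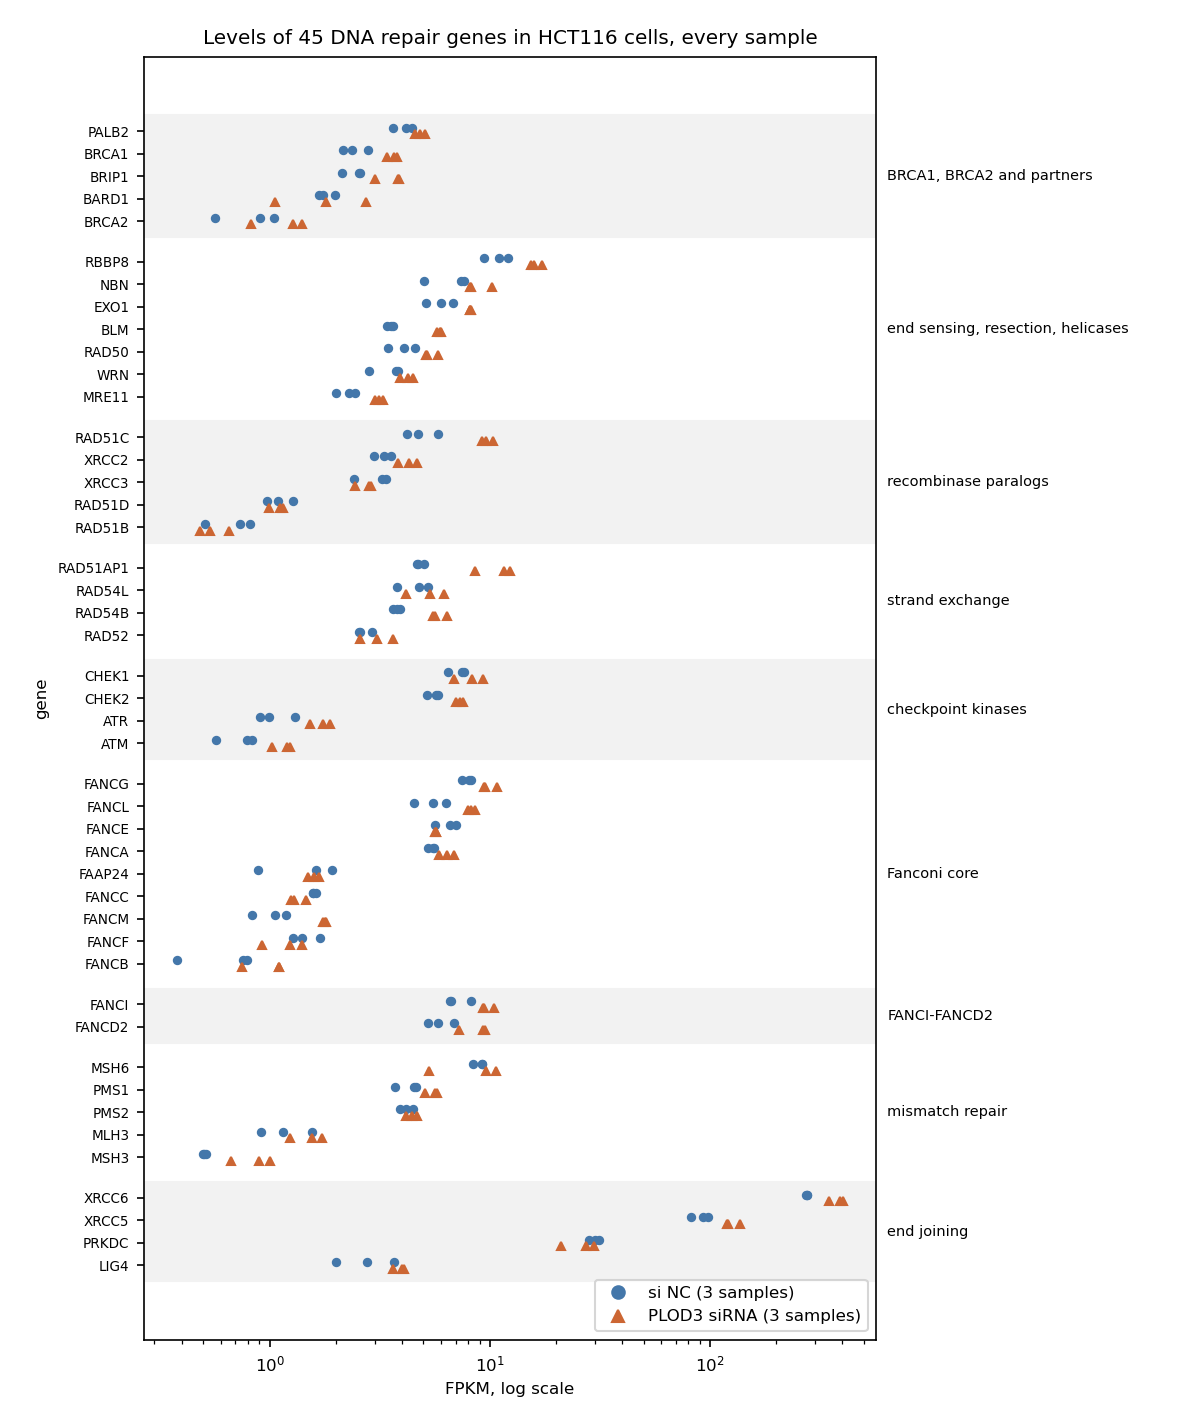
The FPKM of each of the 45 genes is plotted on a log axis, with 3 blue circles for si NC and 3 orange triangles for PLOD3 siRNA, grouped by role. XRCC6 and XRCC5 stand far to the right, and for most genes the triangles lie to the right of the circles, with PRKDC, XRCC3, FANCC and FANCF among the exceptions.

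Of BRCA1, BRCA2 and their binding partners, 2 of 5 rose and 0 fell, beside 16.2% and 19.3% of all tested genes. Their median log2 fold change was 0.48. BRCA1 (ENSG00000012048, chromosome 17, 43044295 to 43170245, minus strand, GRCh38), a ubiquitin ligase that steers breaks toward recombination, measured 2.81, 2.15 and 2.37 FPKM in the controls against 3.81, 3.41 and 3.66 with PLOD3 siRNA. Its groups did not overlap, and it rose by 0.58 on the log2 scale (SE 0.104, edgeR adjusted p = 0.00858). BRIP1, a helicase that binds BRCA1, measured 2.55, 2.13 and 2.57 FPKM in the controls against 3.88, 3.02 and 3.82 with PLOD3 siRNA. It rose by 0.57 (SE 0.114, edgeR adjusted p = 0.0121), and GC correction ended that call (log2 0.28, adjusted p = 0.0819). PALB2, which bridges BRCA1 to BRCA2, had separate groups but did not pass (4.07 ± 0.408 and 4.85 ± 0.263 FPKM, SD, n = 3 each, edgeR adjusted p = 0.0672). BRCA2, the loader of the recombinase, was among the least abundant genes, at 0.838 ± 0.247 and 1.17 ± 0.304 FPKM (SD, n = 3 each), and did not pass (edgeR adjusted p = 0.193). BARD1, the obligate partner of BRCA1, was singled out after its values were seen, and had the largest standard error of the 41. It measured 1.98, 1.68 and 1.75 FPKM in the controls against 2.75, 1.81 and 1.06 in replicates 1 to 3 with PLOD3 siRNA, so that it was above, among and below the controls. Its log2 fold change was 0.07 (SE 0.317, edgeR adjusted p = 0.888), and without PLOD3 siRNA replicate 1 it was -0.29 (adjusted p = 0.432).

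The next role is end sensing and end resection, with the RecQ helicases. In all 7 of its genes the groups were separate with PLOD3 siRNA above si NC, 5 passed the test as higher, and the median log2 fold change was 0.45. Over all tested genes, 24.6% had separate groups in that direction and 16.2% were called higher. The transcripts of the 7 held 37.3% to 42.4% GC. In the GC classes below 40% and from 40% to under 45%, 32.6% and 28.1% of all tested genes were called higher. After the GC correction 2 of the 7 were called higher, beside 13.1% of all genes. BLM (ENSG00000197299, chromosome 15, 90717346 to 90816166, plus strand, GRCh38), the helicase that dissolves joined chromatids, measured 3.66, 3.42 and 3.57 FPKM in the controls against 6.01, 5.96 and 5.74 with PLOD3 siRNA. The samples of each group lay close together, and it rose by 0.74 (SE 0.0756, edgeR adjusted p = 0.00255). RBBP8, known as CtIP, which starts the trimming of a broken end, measured 12.1, 9.39 and 11.0 FPKM in the controls against 15.5, 17.3 and 16.0 with PLOD3 siRNA. It rose by 0.59 (SE 0.108, edgeR adjusted p = 0.00887). The complex that first binds a break is made of MRE11, RAD50 and NBN. Its nuclease MRE11 measured 2.45, 2.00 and 2.30 FPKM in the controls against 3.13, 3.00 and 3.26 with PLOD3 siRNA (log2 0.48, SE 0.0903, edgeR adjusted p = 0.00992). RAD50, which tethers the ends, rose by 0.42 (edgeR adjusted p = 0.0237), and NBN, which recruits ATM, stood at 0.41 and did not pass (adjusted p = 0.1). The exonuclease EXO1, which extends the trimmed strand and also serves mismatch repair, measured 6.83, 6.03 and 5.14 FPKM in the controls against 8.14, 8.24 and 8.13 with PLOD3 siRNA. It rose by 0.45 (SE 0.112, edgeR adjusted p = 0.023), and the helicase WRN stood at 0.29 without passing (adjusted p = 0.116). With GC correction the calls of MRE11, RAD50 and EXO1 were lost (log2 0.21, 0.21 and 0.26, edgeR adjusted p = 0.0605, 0.103 and 0.117). RAD50 also lost its call without si NC replicate 3 (adjusted p = 0.063) or any one PLOD3 siRNA sample (0.0504 to 0.0647), and EXO1 without si NC replicate 3 (0.0527) or PLOD3 siRNA replicate 1 (0.0574) or 2 (0.0619).

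The paralogs of the recombinase, which form complexes that help it onto DNA, were split. RAD51C and XRCC2 rose, RAD51D and XRCC3 did not pass, and RAD51B was below the level tested. RAD51C (ENSG00000108384, chromosome 17, 58692573 to 58735611, plus strand, GRCh38), a member of both paralog complexes, measured 4.21, 4.74 and 5.84 FPKM in the controls against 9.24, 10.4 and 9.62 with PLOD3 siRNA. Every PLOD3 siRNA sample was above every control, and it rose by 0.98 (SE 0.143, edgeR adjusted p = 0.00494). XRCC2 measured 3.58, 2.98 and 3.30 FPKM in the controls against 4.67, 3.83 and 4.31 with PLOD3 siRNA. Its rise of 0.38 (SE 0.0988, edgeR adjusted p = 0.0265) did not pass with GC correction (log2 0.20, adjusted p = 0.131) or without si NC replicate 2 (0.0599) or 3 (0.0732) or PLOD3 siRNA replicate 1 (0.0917) or 3 (0.0587). XRCC3, the partner of RAD51C in the smaller complex, was singled out after its values were seen. It measured 3.23, 3.38 and 2.43 FPKM in the controls against 2.90, 2.43 and 2.83 with PLOD3 siRNA. These groups overlapped (log2 -0.14, SE 0.14, edgeR adjusted p = 0.454), and after the GC correction the value was 0.19 (adjusted p = 0.306). The ratio of XRCC3 to RAD51C in FPKM averaged 0.632 ± 0.189 in the controls and 0.281 ± 0.0413 with PLOD3 siRNA (SD, n = 3 each), with no overlap. A two-sided exact permutation test gave p = 0.1, the smallest that 3 against 3 samples allow, and 0.3 adjusted over the 6 pairs of partner genes compared. RAD51D stood at 1.12 ± 0.149 and 1.09 ± 0.082 FPKM (SD, n = 3 each), and RAD51B at 0.686 ± 0.158 and 0.558 ± 0.0857.

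Among the partners of strand exchange, RAD51AP1 and RAD54B rose and RAD52 and RAD54L did not pass. RAD51AP1 (ENSG00000111247, chromosome 12, 4538798 to 4560048, plus strand, GRCh38), which helps the recombinase pair with its template, had the highest fold change of the 41. It measured 4.74, 5.01 and 4.67 FPKM in the controls against 8.62, 11.6 and 12.3 with PLOD3 siRNA, a rise of 1.18 (SE 0.154, edgeR adjusted p = 0.00386). The lowest PLOD3 siRNA sample was thus well above the highest control. RAD54B, a translocase, measured 3.78, 3.63 and 3.90 FPKM in the controls against 5.66, 6.39 and 5.55 with PLOD3 siRNA. It rose by 0.64 (SE 0.102, edgeR adjusted p = 0.00605), and the GC correction ended the call (log2 0.35, adjusted p = 0.0567), as did the GC and length correction (0.0529). Its relative RAD54L, at 4.60 ± 0.728 and 5.23 ± 1.02 FPKM (SD, n = 3 each), overlapped between the groups (log2 0.19, edgeR adjusted p = 0.389). RAD52, which anneals single strands, overlapped as well, at 2.69 ± 0.211 and 3.10 ± 0.528 (SD, n = 3 each).

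**Figure D3:**
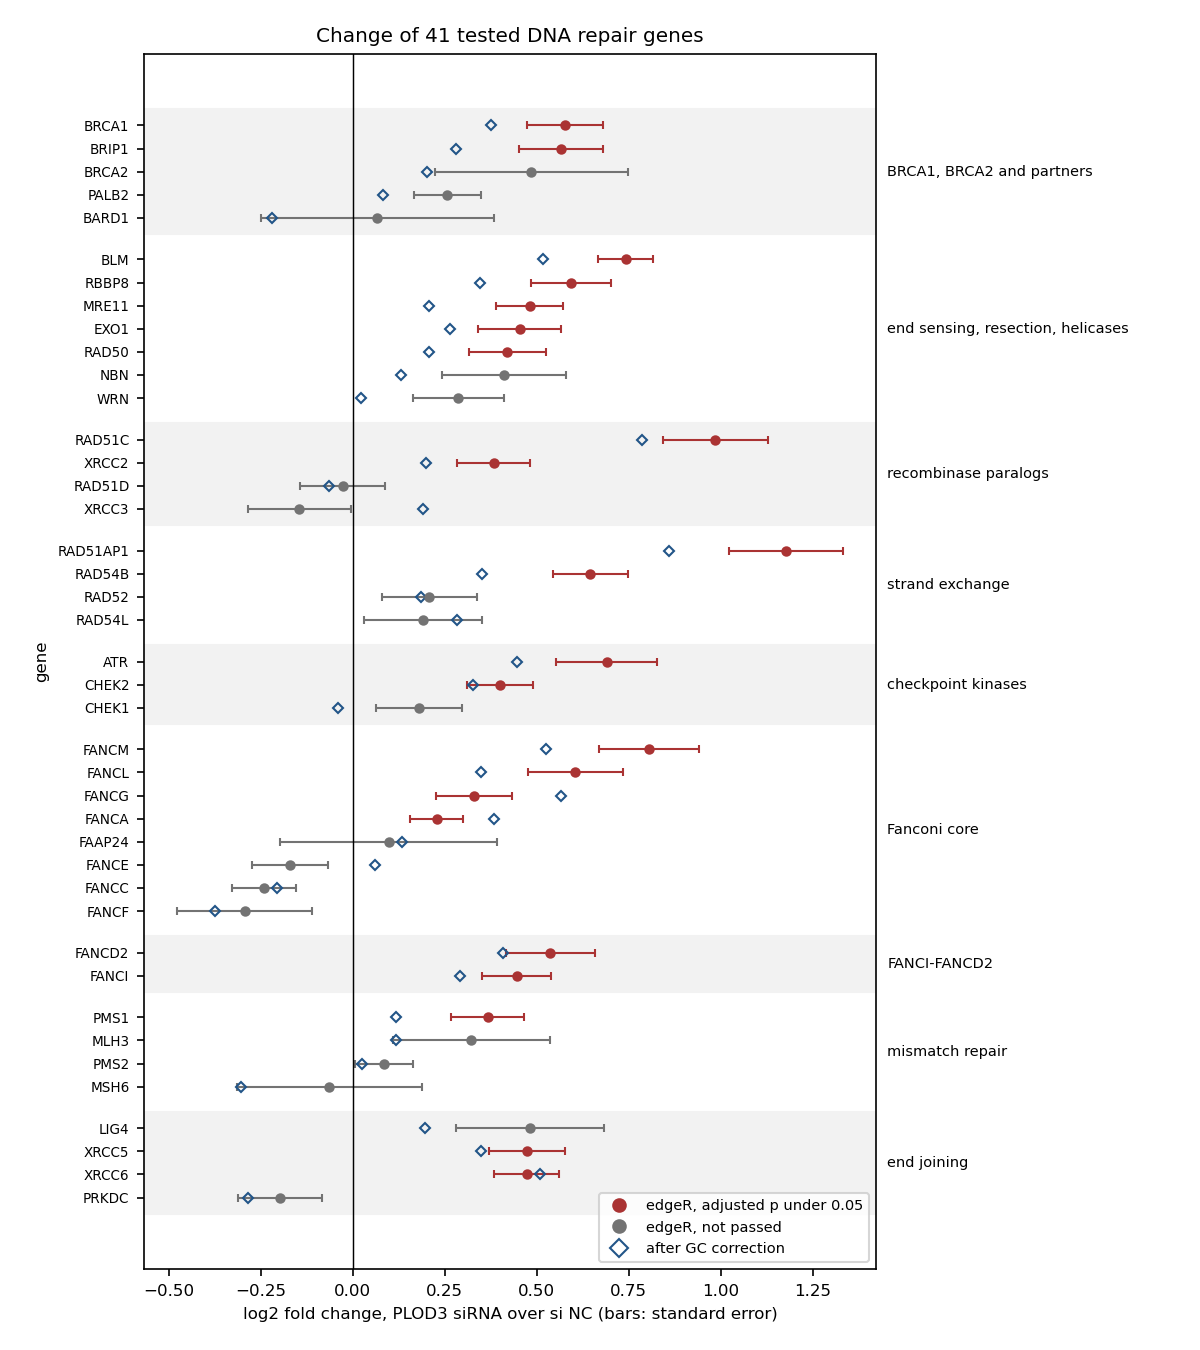
Log2 fold changes of the 41 tested genes are drawn as circles with standard errors, red where the edgeR test was passed and grey where it was not, and open diamonds give the value after the GC correction. All 22 red circles lie to the right of 0, from 0.23 for FANCA to 1.18 for RAD51AP1, and most diamonds lie to the left of their circles.

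Of the kinases that report damage to the cell cycle, ATR and CHEK2 rose and CHEK1 did not pass. ATR, which senses single-stranded DNA at stalled forks, measured 1.3, 0.908 and 0.993 FPKM in the controls against 1.88, 1.52 and 1.74 with PLOD3 siRNA. It rose by 0.69 (SE 0.137, edgeR adjusted p = 0.0116), with no overlap. CHEK2, the kinase that acts below ATM, measured 5.84, 5.69 and 5.17 FPKM in the controls against 7.32, 7.58 and 7.04 with PLOD3 siRNA. It rose by 0.40 (SE 0.0903, edgeR adjusted p = 0.0174) and lost the call without si NC replicate 3 (adjusted p = 0.0599). CHEK1, the kinase that acts below ATR, stood at 7.22 ± 0.635 and 8.17 ± 1.22 FPKM (SD, n = 3 each, log2 0.18, edgeR adjusted p = 0.269), and its GC-corrected value was -0.04. ATM, the sensor of broken ends, measured 0.789, 0.570 and 0.835 FPKM in the controls against 1.20, 1.03 and 1.24 with PLOD3 siRNA, below the level tested. Without the filter on low values it was called higher (log2 0.67, edgeR adjusted p = 0.0236). In that fit 4.49% of 32482 genes were called higher, of which only 12000 genes reached the filter. Of the 41 repair genes above the filter, 18 were called higher in it.

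The Fanconi core complex, the ubiquitin ligase that marks FANCI and FANCD2, was divided. Of its 8 tested members 4 rose and 0 fell, beside 16.2% and 19.3% of all tested genes, and the median log2 fold change was 0.16. FANCM (ENSG00000187790, chromosome 14, 45135930 to 45200890, plus strand, GRCh38), the translocase that brings the complex to DNA, measured 1.18, 0.832 and 1.06 FPKM in the controls against 1.79, 1.80 and 1.76 with PLOD3 siRNA. It rose by 0.80 (SE 0.136, edgeR adjusted p = 0.00725). FANCL, the catalytic subunit, measured 6.32, 4.52 and 5.55 FPKM in the controls against 8.0, 8.59 and 8.20 with PLOD3 siRNA. It rose by 0.60 (SE 0.129, edgeR adjusted p = 0.0146), and the call was lost after the GC and length correction (log2 0.26, adjusted p = 0.07). A stretch of 678 bases of FANCL overlaps VRK2 on the other strand, which also rose (log2 0.82, edgeR adjusted p = 0.00254), and without a stated strand setting their reads cannot be told apart there. FANCG, a scaffold subunit that binds FANCA, measured 8.20, 8.09 and 7.50 FPKM in the controls against 9.48, 10.8 and 9.44 with PLOD3 siRNA (log2 0.33, SE 0.103, edgeR adjusted p = 0.0475). FANCA, its partner within the complex, measured 5.55, 5.60 and 5.24 FPKM in the controls against 6.42, 5.86 and 6.88 with PLOD3 siRNA (log2 0.23, SE 0.0722, edgeR adjusted p = 0.0492). Both calls lay near the threshold and were lost without any one of the 6 samples (edgeR adjusted p = 0.0564 to 0.132 for FANCG and 0.0531 to 0.137 for FANCA), and limma on log2(FPKM + 1) gave FANCA an adjusted p of 0.101. The transcripts of FANCG and FANCA hold 58.1% and 55.4% GC, and with GC correction they stood at 0.57 and 0.38 (edgeR adjusted p = 0.011 and 0.00839). FANCC, FANCE and FANCF had lower means in PLOD3 siRNA and did not pass (log2 -0.24, -0.17 and -0.29, edgeR adjusted p = 0.0705, 0.235 and 0.25), and FANCE stood at 0.06 after the GC correction. FAAP24, which pairs with FANCM, was scattered in si NC, at 0.883, 1.62 and 1.92 FPKM, and did not pass (edgeR adjusted p = 0.822). FANCB lay below the level tested, at 0.642 ± 0.227 and 0.984 ± 0.204 FPKM (SD, n = 3 each).

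The 2 substrates of the core complex, which clamp onto DNA together, rose together. FANCD2 measured 6.90, 5.26 and 5.82 FPKM in the controls against 9.28, 7.25 and 9.48 with PLOD3 siRNA (log2 0.54, SE 0.122, edgeR adjusted p = 0.0177). FANCI measured 8.25, 6.63 and 6.65 FPKM in the controls against 10.4, 9.31 and 9.46 with PLOD3 siRNA (log2 0.44, SE 0.0944, edgeR adjusted p = 0.0143). Neither gene overlapped between the groups. The ratio of FANCI to FANCD2 was 1.20 ± 0.0587 in the controls and 1.13 ± 0.144 with PLOD3 siRNA (SD, n = 3 each, exact permutation p = 0.5). Without si NC replicate 3 the calls of FANCD2 and FANCI were lost (edgeR adjusted p = 0.0562 and 0.0504), as they were without PLOD3 siRNA replicate 1 (0.0598 and 0.0534). POLG overlaps FANCI on the other strand and did not pass (log2 -0.10, edgeR adjusted p = 0.284).

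The mismatch repair genes mostly did not pass. Of 4 tested members 1 rose and 0 fell, beside 16.2% and 19.3% of all tested genes, and the median log2 fold change was 0.20. PMS1, a relative of the bacterial MutL protein, measured 4.61, 3.71 and 4.55 FPKM in the controls against 5.67, 5.10 and 5.75 with PLOD3 siRNA. Its rise of 0.37 (SE 0.0998, edgeR adjusted p = 0.0315) passed when si NC replicate 2 was left out (0.0451) but not when another sample was (0.0512 to 0.0842), and not with GC correction (log2 0.12, adjusted p = 0.276). MSH6, a subunit of the main mismatch sensor and the most abundant gene of this role, measured 9.21, 8.43 and 9.25 FPKM in the controls against 10.7, 9.57 and 5.29 in replicates 1 to 3 with PLOD3 siRNA. Of the PLOD3 siRNA samples, 2 lay above all controls and replicate 3 below all of them, and the gene did not pass (log2 -0.06, SE 0.251, edgeR adjusted p = 0.863). Without PLOD3 siRNA replicate 3 the value was 0.19 (adjusted p = 0.103). BARD1 was lowest in the same sample. MSH3, a subunit of the sensor of longer loops, was below the level tested, at 0.501, 0.505 and 0.516 FPKM in the controls and at 0.667, 1.01 and 0.898 in PLOD3 siRNA. Without the filter it was called higher (log2 0.77, edgeR adjusted p = 0.0471), as were 4.49% of the 32482 genes in that fit. MLH3 and PMS2 stood at 0.32 and 0.09 and did not pass (edgeR adjusted p = 0.277 and 0.432). PMS2 has 11 copies named as its pseudogenes or like copies in the table, the highest at a mean of 3.65 FPKM, so its own level of 4.19 ± 0.283 and 4.44 ± 0.254 FPKM (SD, n = 3 each) is uncertain.

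End joining held the most abundant genes, and 2 of its 4 members rose and 0 fell, beside 16.2% and 19.3% of all tested genes. XRCC6 (ENSG00000196419, chromosome 22, 41621163 to 41664048, plus strand, GRCh38) and XRCC5 encode the Ku proteins, which ring a broken end. XRCC6 measured 278, 273 and 277 FPKM in the controls against 390, 402 and 350 with PLOD3 siRNA, a rise of 0.47 (SE 0.0887, edgeR adjusted p = 0.00991). XRCC5 measured 97.9, 82.4 and 93.4 FPKM in the controls against 119.7, 137 and 121 with PLOD3 siRNA, a rise of 0.47 (SE 0.103, edgeR adjusted p = 0.0153). Neither overlapped between the groups. The ratio of XRCC5 to XRCC6 was 0.331 ± 0.0258 in the controls and 0.331 ± 0.0213 with PLOD3 siRNA (SD, n = 3 each, exact permutation p = 1). PRKDC, singled out after its values were seen, is the catalytic kinase that Ku brings to the end. It measured 31.3, 28.2 and 30.2 FPKM in the controls against 27.4, 21.0 and 29.7 with PLOD3 siRNA, and did not pass (log2 -0.20, SE 0.114, edgeR adjusted p = 0.22). Its ratio to XRCC6 lay below all controls in every PLOD3 siRNA sample, at 0.108 ± 0.00463 in the controls and 0.0692 ± 0.0164 with PLOD3 siRNA (SD, n = 3 each, exact permutation p = 0.1, adjusted 0.3). LIG4, the ligase of the pathway, stood at 2.81 ± 0.844 and 3.90 ± 0.238 FPKM (SD, n = 3 each) and did not pass (log2 0.48, edgeR adjusted p = 0.107), but did without si NC replicate 1 (log2 0.70, adjusted p = 0.0281). XRCC6 has 5 pseudogenes by name in the table, the highest at 1.19 FPKM.

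**Figure D4:**
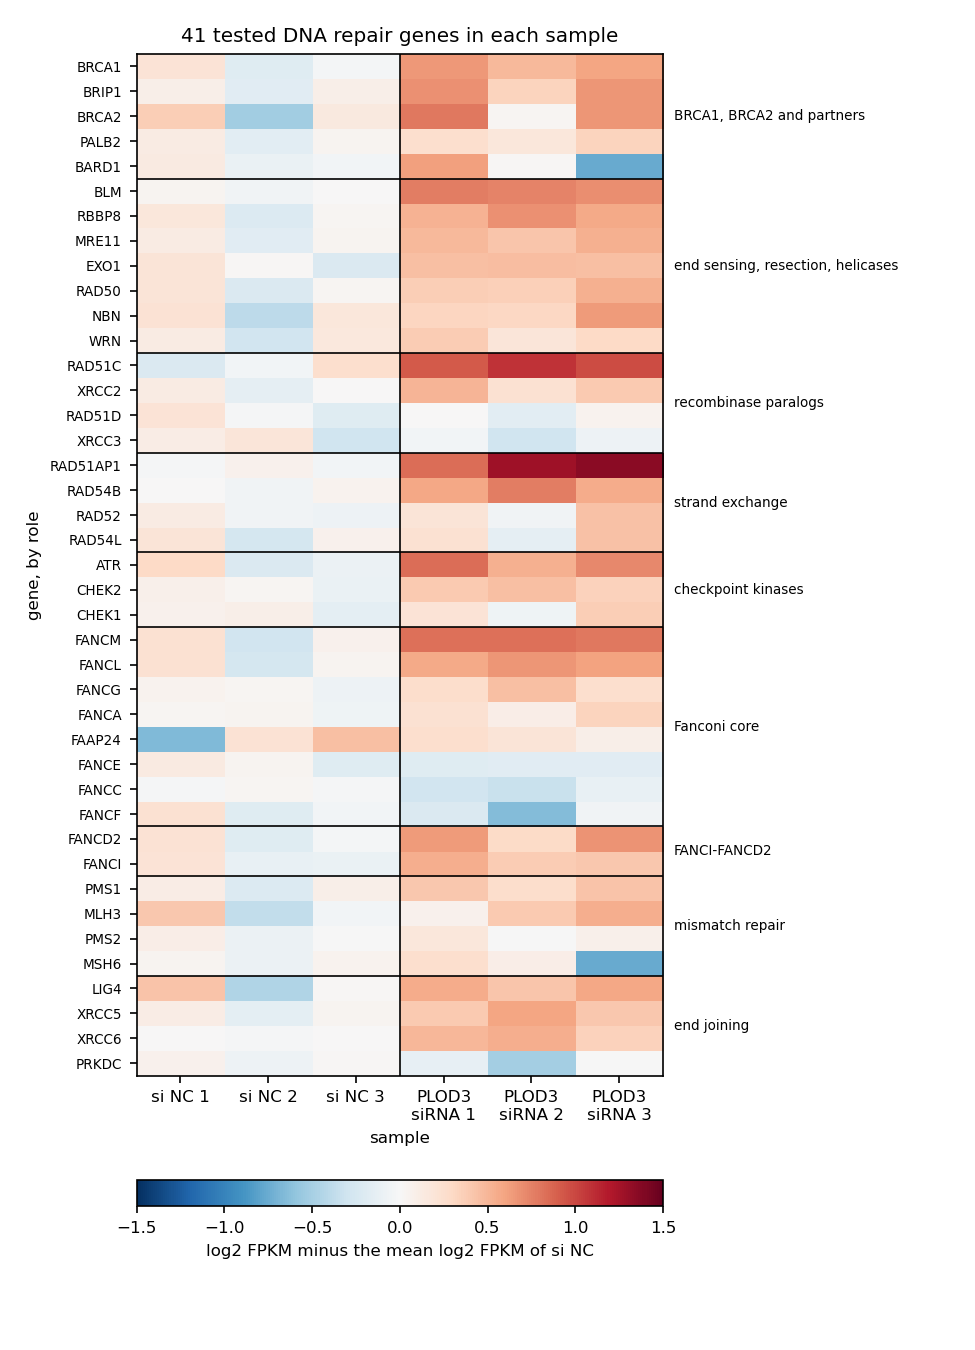
Each row is 1 of the 41 tested genes and each column 1 of the 6 samples, and the colour gives log2 FPKM minus the mean log2 FPKM of si NC, from blue (lower) to red (higher). The PLOD3 siRNA columns are red for most rows, with BARD1 and MSH6 in blue in PLOD3 siRNA replicate 3 and PRKDC and FANCF in replicate 2.

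The samples of a group were not alike over these genes. On log2 CPM (counts per library size), 34 of the 41 genes were above the si NC mean in si NC replicate 1 and 12 in replicate 2, with medians of 0.09 and -0.08, and replicate 3 had 22 and a median of 0.02. In PLOD3 siRNA replicates 1 to 3, 35, 33 and 34 genes were above that mean, with medians of 0.38, 0.36 and 0.41. The medians of all genes were between 0.00 and 0.01 in every sample. All 3 PLOD3 siRNA medians lay above the highest control median.

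A list of 56 other genes of the same pathways, also chosen with earlier results of these data known, was set beside the 45. Of these, 55 were tested, 13 rose and 4 fell, against 16.2% and 19.3% of all tested genes, and the median log2 fold change was 0.16. After the GC correction 9 were higher and 2 lower, against 13.1% and 14.4% of all genes. SFR1, a partner of the recombinase, rose from 8.49 ± 0.398 to 12.7 ± 0.367 FPKM (SD, n = 3 each, log2 0.58, edgeR adjusted p = 0.00404), and did not pass after the GC and length correction (log2 0.20, adjusted p = 0.127). TOPBP1, which activates ATR, rose from 9.10 ± 0.269 to 13.1 ± 0.804 FPKM (SD, n = 3 each, log2 0.53, edgeR adjusted p = 0.00416). RPA2, a subunit of the complex that coats single-stranded DNA, rose by 0.50 on the log2 scale (edgeR adjusted p = 0.00431). The 4 that fell, named after their values were seen, were the Fanconi core gene FAAP100 (log2 -0.66), the damage scaffold MDC1 (-0.51), the nuclease scaffold SLX4 (-0.45) and the polymerase POLM (-0.39), with edgeR adjusted p = 0.00444, 0.0166, 0.0376 and 0.0436. With GC correction, SLX4 and POLM no longer passed (edgeR adjusted p = 0.217 and 0.593), and after the GC and length correction none of the 4 did (0.0922, 0.0744, 0.647 and 0.511 for FAAP100, MDC1, SLX4 and POLM). MCM9 was below the level tested.

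Several repair genes share a start region with a neighbour transcribed the other way, a layout the choice of genes did not use. With starts less than 1000 bases apart in the table, 15 of the 45 had such a neighbour at a mean of 1 FPKM or more, of which 4 rose and 1 fell. Over all tested genes 35.5% were called in either direction, so this count is near the background. C12orf4, whose start lies 290 bases from that of RAD51AP1, rose with it (log2 0.82, edgeR adjusted p = 0.00362). FKBP3 beside FANCM rose too (0.28, edgeR adjusted p = 0.0176). MCM4, a subunit of the replicative helicase whose start lies 7 bases from that of PRKDC, rose by 0.34 (edgeR adjusted p = 0.00745), while PRKDC did not pass, and AIMP2 rose by 0.36 (edgeR adjusted p = 0.0234) beside PMS2, which did not pass. ZFYVE21 fell (log2 -0.46, edgeR adjusted p = 0.00639) beside XRCC3, which did not pass. The neighbours of BRCA1, PALB2, MRE11, CHEK2, XRCC6 and the other 5 genes did not pass. For BRCA1 the neighbour at the deposited start was NBR1. NBR2, a noncoding gene annotated with a bidirectional promoter, overlaps BRCA1 by 28121 bases on the other strand. At a mean of 0.962 FPKM, NBR2 was below the level tested. The differences within these pairs were not tested. Long overlaps with an expressed gene on the other strand were found for XRCC3 with KLC1 (16641 bases), RAD54L with LRRC41 (17285), MSH6 with FBXO11 (17638) and FANCI with POLG (12064), and of these partners LRRC41 fell (log2 -0.42, edgeR adjusted p = 0.0147) and the others did not pass. Shorter overlaps, of 280 to 3355 bases, were found for PMS1 with ORMDL1, BRCA1 with a pseudogene, CHEK2 with HSCB, NBN with DECR1 and FANCA with ZNF276, and none of these partners passed. Reads of such partners cannot be told apart without a stated strand setting.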

How the data were processed

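RNA-seq after ribosomal RNA depletion covered 6 HCT116 samples, 3 with si NC and 3 with PLOD3 siRNA, grouped by their titles. Per the submitters' processing notes, cutadapt 1.9, HISAT2 2.0.4 and StringTie 1.3.4d were used. The build, annotation, strand setting and counting method were not given in the sources used here. The deposited table, per the file headers, holds FPKM and estimated counts per gene for each sample, made by the authors. Gene positions came from the deposited table. Transcript GC content and lengths came from GENCODE 29 (GRCh38), which matched 58394 of 60612 gene identifiers (96.3%). Of the matched genes, 99.8% overlapped their GENCODE position, and the build named beside gene positions rests on that overlap. The estimated counts were tested as deposited with edgeR 4.0.16 in R 4.3.3 (TMM, quasi-likelihood, Benjamini-Hochberg over the 12000 genes with a mean of at least 1 FPKM). That about 4 units stand for 1 read pair was inferred. A mean of 1490 genes per sample had a count of 4, against 558 at 3 and 312 at 5. Dividing the counts by 4 was an alternative. TPM was computed from FPKM. The GC correction subtracted a loess trend (span 0.5) per sample. Exact permutation tests were two-sided. Other alternatives were DESeq2 1.42.0, its size factors, limma 3.58.1 on log2(FPKM + 1) or log2(FPKM + 0.1), other filters, a GC and length correction, a replicate block and leaving out each sample. Values of every sample are given for up to 4 called genes per role with the largest fold change, or the most abundant gene where fewer than 2 were called. They are also given for PLOD3 and for genes said to be chosen or singled out after their values were seen. ATM and MSH3, below the level tested, are printed outside this rule, and both had every PLOD3 siRNA sample above every control. Of the other pathway genes, up to 4 called ones with the smallest p are named. The 45 genes, the lists and the motifs were chosen with earlier results of these data known.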

Additional observations from a re-analysis of the deposited data

How the results depend on the processing

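Across the alternatives run, 0 repair genes were called lower and PLOD3 stayed lower. Without each sample in turn, 13 to 20 repair genes were called higher, with 1083 to 1651 of all genes higher and 1509 to 2011 lower, fewer samples being tested. The median log2 fold change of the repair genes was then 0.30 to 0.46, and 7 to 13 of the other pathway genes were higher and 1 to 4 lower. With a mean of at least 5 FPKM, which left fewer genes, 10 repair genes were called higher, with 1192 higher and 1354 lower over all genes. All genes lower numbered 1461 with TPM and 1542 after the GC and length correction. The median of the repair genes was 0.30 in limma on log2(FPKM + 1), 0.44 with TPM, 0.21 after the GC correction and 0.29 after the GC and length correction.

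The replicate numbers did not pair the samples: deviations of equally numbered samples correlated at 0.0486, -0.0107 and -0.0230, and not every sample correlated best with its own number. With the replicate block, 21 repair genes were called higher (BRCA2 gained the call, adjusted p = 0.0333, and FANCA and FANCG lost it, 0.107 and 0.0533, by edgeR), and 1471 genes higher and 1834 lower over all. With the block and the GC correction these were 12, 1056 and 1211, the median was 0.21, and 8 other pathway genes were higher and 0 lower. Other pathway genes called lower were 2 under limma with either pseudocount, TPM, no filter, the 5 FPKM minimum, the GC correction or the block, and 0 after the GC and length correction. The cause of these moves was not tested.

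Genes that did not pass turned direction in some fits. BARD1 was -0.0033 and -0.036 in limma with pseudocounts of 1 and 0.1, -0.22 after the GC correction, -0.077 after the GC and length correction, -0.032 with the block, -0.32 with both block and GC correction, and -0.29 to 0.36 without each sample. RAD51D was 0.053 with TPM, 0.10 after the GC and length correction, and -0.10 to 0.059 without each sample. XRCC3 was 0.19, 0.20 and 0.20, and FANCE 0.059, 0.037 and 0.064, after the GC correction, the GC and length correction, and the block with GC correction. CHEK1 was -0.040 after the GC correction and -0.040 with the block and GC correction. FAAP24 ranged from -0.18 to 0.34 and MSH6 from -0.24 to 0.19 without each sample. The cause was not tested. Over all alternatives and repair genes, 625 values kept direction and call, 66 lost the call, 2 gained it and 21 turned direction. The least counted tested gene, FAAP24, had 140 units in 1 sample, and what size of change the depth could show was not tested.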
